A study of Rattus norvegicus with 24 samples.

Results

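The first response of muscle to daily resistance training was examined in the 6 tibialis anterior muscles of 3 rats that had trained for 2 days, out of 24 muscles of 12 rats sequenced in the whole series. The members are the trained left muscle (3 samples) and the unstimulated right muscle (3 samples) of the same 3 animals, chosen by their labels alone, and each trained muscle was compared with the contralateral muscle of its own animal across all genes. All animals were male Wistar rats with a pulse generator implanted in the abdomen, which stimulated the left common peroneal nerve once a day in 5 sets of 10 contractions while the plantarflexors provided resistance (SpillOver training). Muscles were taken 1 h after the last bout, so that the 2-day muscles hold the acute response to the second session on top of what remained from the first. The contralateral muscle comes from the same operated and implanted animal and shares its circulation. It is an internal control and not a muscle of an untrained rat. Pieces of muscle with all their cell types were homogenised, so that fewer cells of a type and less RNA per cell cannot be told apart in any result that follows.

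Tibialis anterior is a fast dorsiflexor made mostly of glycolytic fibres. A bout of loaded contraction is known to set off immediate early genes, which encode transcription factors that appear within minutes to hours, followed by genes of the strained Z-disc, chaperones that hold unfolded proteins, and later by extracellular matrix and repair genes. The comparison asks which of these programmes were under way in muscle that had met the exercise only on 2 days.

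The values are of the TPM type, that is, scaled for transcript length and for the total of the sample, and they were divided here by a median-of-ratios factor per muscle (0.914 to 1.10 in the 2-day muscles). They are called rescaled values below. Depth is unknown from such values, and their precision is judged only by the spread between animals. Mitochondrially encoded mRNAs made up 24.9% to 31.7% of the deposited total in the 6 muscles and the 10 most abundant transcripts 30.2% to 35.7%. The fibre genes matched the labelled tissue, with skeletal muscle actin Acta1 at 26310 to 30530 in all 6 muscles.

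Of 13452 tested transcripts, 2058 (15.3%) changed after 2 days, 1163 higher and 895 lower in the trained muscle (limma on paired log2 differences, adjusted p under 0.05). Changes upward were larger than those downward. Among the transcripts that rose, 447 exceeded 2-fold and 32 exceeded 8-fold, whereas 104 of those that fell exceeded 2-fold and 0 exceeded 8-fold. All 3 rats moved in the same direction for 2054 of the 2058 transcripts. The calls were made from these same differences, so this count and the next carry no weight as support. The share moving in the same direction was not counted over all tested transcripts. The 3 trained muscles lay entirely outside the range of the 3 contralateral muscles for 1874 of them, beside 31.9% of all tested transcripts. With 1 transcript per gene, 1065 of 11105 genes were higher (9.59%) and 823 were lower (7.41%), and these shares are the background for the gene groups below.

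The response was not of equal size in the 3 rats. The root mean square log2 difference between the 2 muscles of an animal was 0.49 in rat 1, 0.69 in rat 2 and 0.60 in rat 3. It lay between 0.36 and 0.47 for pairs of contralateral muscles of different animals. Transcripts called higher had a median log2 difference of 0.61, 1.07 and 0.92 in rats 1 to 3, and those called lower -0.42, -0.83 and -0.60. Without rat 1 1986 transcripts passed the threshold, without rat 2 it was 678, without rat 3 it was 905, and with the 6 muscles fitted on their own 514. On the values as deposited, without the rescaling, the median of all transcripts moved from -0.02 to 0.09 and 79.6% of 1521 calls were upward, in place of 56.5%.

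The largest increase was that of Ankrd1, a stress-inducible ankyrin repeat protein that sits on titin in the I-band and also travels to the nucleus (transcript Ankrd1-201, chromosome 1, 254726969 to 254735549, minus strand, Rnor_6.0). It stood at 2.44, 10.7 and 6.2 in the contralateral muscles of rats 1, 2 and 3, and at 379, 2670 and 1641 in their trained muscles. All 3 trained muscles were far above the highest contralateral muscle, and the trained muscle of rat 1 was the lowest of the 3. The log2 change was 7.48 ± 0.41 (SE, adjusted p = 3.0e-06). Otud1, a deubiquitinase, went from 1.5, 5.29 and 5.59 to 186, 184 and 255, with all 3 trained muscles above all contralateral muscles and a log2 change of 5.46 ± 0.47 (adjusted p = 3.3e-05).

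**Figure D1:**
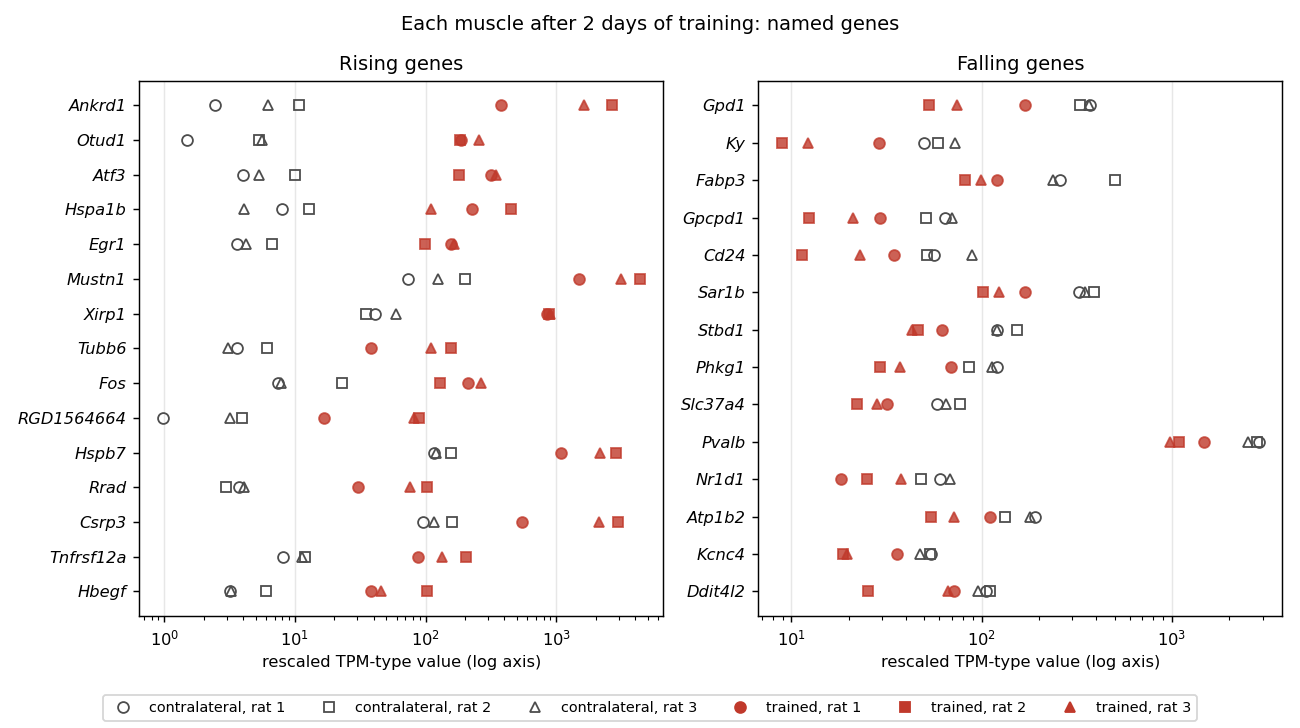
Rescaled value (log axis) of 15 rising and 14 falling genes with the largest changes, in each of the 6 muscles; open grey symbols are contralateral and filled red symbols trained muscles, with 1 symbol shape per rat. Trained and contralateral symbols do not overlap for any of these genes, which was part of the rule that chose them, and Ankrd1 has the widest gap (log2 change 7.48).

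Immediate early transcription factors had the highest median of the 39 gene lists. Of 31 tested, 22 rose and 1 fell, with a median log2 change of 1.48 against -0.02 for all genes. Atf3, a stress-induced repressor of the CREB family, stood at 4.01, 10.1 and 5.3 in the contralateral and at 315, 180.4 and 344 in the trained muscles of rats 1 to 3. Its log2 change was 5.26 ± 0.50 (adjusted p = 6.2e-05). Egr1, a zinc finger factor driven by serum response factor, was at 3.6, 6.7 and 4.25 in the contralateral and 156, 98.3 and 165 in the trained muscles (log2 change 4.59 ± 0.30, adjusted p = 6.4e-06). Fos, a subunit of AP-1, was at 7.38, 23 and 7.88 in the contralateral and 213, 129 and 265 in the trained muscles (log2 change 4.00 ± 0.48, adjusted p = 3.0e-04). In Fos and Egr1 the trained muscle of rat 2 was the lowest of the 3, unlike in Ankrd1.

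Other members of this list changed less. The orphan nuclear receptor Nr4a3 rose from a mean of 2.53 to 37.3, Jund, an AP-1 subunit, from 15.6 to 86.8, and the antiproliferative gene Btg2 from 13.8 to 68. Myc, the growth regulator that drives ribosome genes, went from 1.6, 1.75 and 1.21 to 9.66, 17.4 and 14.9 (log2 change 2.54 ± 0.18, adjusted p = 8.7e-06). Klf9, a glucocorticoid-responsive factor, was the member that fell (50.5, 56.9 and 42.3 contralateral against 40.5, 28.6 and 30.3 trained, log2 change -0.58 ± 0.14), a call lost without rat 2 or rat 3. Of the MAP kinase phosphatases and Sproutys that restrain the upstream kinases, 2 of 18 rose and 0 fell. Dusp2 rose from a mean of 0.192 to 5.04. Dusp1, a classical early gene, was at 12.2, 41.6 and 16.6 in the contralateral and 15.3, 45.4 and 30.7 in the trained muscles and did not pass the threshold (adjusted p = 0.42).

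Promoters of these genes were read from RefSeq (GRCr8, a later build than the one used for the values) as the 250 bases before the annotated start, which 8106 of the 11105 tested genes had. The CArG box, bound by serum response factor, was found on either strand in 3 of the 16 called early genes with an entry (Egr1, Egr2 and Klf6), and in 1.32% of all 8106 genes. The cAMP response element TGACGTCA was in 3 of the 16 (Maff, Jund and Btg2) and in 2.95% of all. The E-box CACGTG was in 3 of the 16 as well (Maff, Klf6 and Mafk) and in 8.85% of all. The heat shock element core GAANNTTC and the muscle CAT element CATTCC were in 1 each, against 4.96% and 10.4% of all. The AP-1 site TGACTCA was in 0 of the 16 and in 3.33% of all. These matches describe the letters of the window and are not binding sites shown by these data. Fos, Atf3 and Myc had no entry. The windows of the Egr pair are shown because they hold the serum response motif in members that rose together, with the CArG boxes in capitals.
Egr1 (chr18:26736828-26737077, plus strand): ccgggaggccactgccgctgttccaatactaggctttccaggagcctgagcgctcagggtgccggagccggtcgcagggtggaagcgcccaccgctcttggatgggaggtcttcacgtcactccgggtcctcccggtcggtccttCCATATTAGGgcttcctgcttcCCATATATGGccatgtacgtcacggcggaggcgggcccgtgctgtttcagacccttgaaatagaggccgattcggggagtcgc
Egr2 (chr20:21054442-21054691, minus strand): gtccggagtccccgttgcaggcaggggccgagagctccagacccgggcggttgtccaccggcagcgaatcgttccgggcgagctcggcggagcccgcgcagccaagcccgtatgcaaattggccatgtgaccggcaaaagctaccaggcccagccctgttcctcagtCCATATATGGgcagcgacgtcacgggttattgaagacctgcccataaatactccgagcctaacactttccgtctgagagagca

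Egr2 was a low transcript, at 0.0705, 0.154 and 0.0686 in the contralateral and 1.69, 0.95 and 1.27 in the trained muscles (log2 change 1.06 ± 0.18, adjusted p = 0.003).

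Genes of the stretched sarcomere came next. In the list of stretch and Z-disc stress genes, 20 of 31 tested members rose and 3 fell, with a median log2 change of 1.16. Mustn1, a small muscle nuclear protein active in regeneration, was at 74, 199 and 124 in the contralateral muscles and 1481, 4337 and 3107 in the trained ones (log2 change 4.46 ± 0.24, adjusted p = 3.0e-06). Xirp1, an actin-binding protein that gathers at sites of Z-disc damage, rose to nearly the same level in the 3 rats, at 41.2, 35.3 and 59.1 in the contralateral and 844, 885 and 889 in the trained muscles (log2 change 4.27 ± 0.24, adjusted p = 3.0e-06). Csrp3, the Z-disc protein MLP, was at 95.1, 159.8 and 116 in the contralateral and 544, 2978 and 2122 in the trained muscles, with rat 1 well below the other rats (log2 change 3.63 ± 0.41, adjusted p = 2.2e-04). Tnfrsf12a, the receptor for the cytokine TWEAK, went from 8.04, 11.9 and 11.3 to 87.7, 204 and 133.

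Abundant structural members also rose. Fhl1, a LIM domain protein of the sarcomere, was at 609, 550.2 and 637 in the contralateral and 3118, 3925 and 3917 in the trained muscles (log2 change 2.60 ± 0.15, adjusted p = 4.7e-06). Flnc, the muscle filamin that crosslinks actin at the Z-disc, went from a mean of 118 to 792, Klhl40, which stabilises thin filament proteins, from 44 to 461, and Ankrd2, a relative of Ankrd1, from 16.8 to 186. Of those that fell, Ky, a Z-disc protein whose loss gives muscle degeneration in mice, dropped from 49.7, 58.7 and 72.2 to 28.7, 8.94 and 12.3 (log2 change -1.94 ± 0.28, adjusted p = 9.0e-04). The fast-fibre Z-disc genes Actn3 (log2 change -0.76 ± 0.21, adjusted p = 0.028) and Myoz3 (-0.75 ± 0.20, adjusted p = 0.027) fell as well, and both lost their calls on the values as deposited, with no replicate block and without rat 2 or rat 3. With the 6 muscles fitted alone the falling members lost their calls, that of Ky at an adjusted p of 0.055, while 17 members of the list were called higher.

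The AP-1 site TGACTCA was found in the windows of 3 of 19 called members of this list with an entry (Xirp1, Xirp2 and Klhl40), against 3.33% of all genes. The CArG box was in 2 of the 19 (Fhl1 and Fhl2), against 1.32% of all, and the muscle CAT element in 3, against 10.4%. The E-box and the heat shock core were in 1 each, against 8.85% and 4.96%, and the cAMP response element in 0, against 2.95%. Ankrd1, Csrp3, Abra and Nrap had no entry. Of the 3 with an AP-1 site, the windows of those that rose most are shown, with the site on either strand in capitals. That of Xirp1 is 1 of 3 annotated starts.
Xirp1 (chr8:128635012-128635261, minus strand): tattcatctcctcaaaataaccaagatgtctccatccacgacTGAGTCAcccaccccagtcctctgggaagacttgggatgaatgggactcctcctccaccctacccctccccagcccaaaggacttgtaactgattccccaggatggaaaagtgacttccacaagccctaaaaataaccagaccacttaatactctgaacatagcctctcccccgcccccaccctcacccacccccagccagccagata
Klhl40 (chr8:130318543-130318792, plus strand): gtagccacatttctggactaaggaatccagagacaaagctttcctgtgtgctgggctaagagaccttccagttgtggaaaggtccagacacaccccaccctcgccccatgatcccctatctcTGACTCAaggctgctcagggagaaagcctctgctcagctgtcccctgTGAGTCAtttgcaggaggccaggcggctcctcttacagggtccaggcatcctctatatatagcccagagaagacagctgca

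Chaperones rose without a falling member. Of 34 tested heat shock proteins and co-chaperones, 17 rose and 0 fell. Hspa1b, an inducible Hsp70, was at 7.93, 12.8 and 4.1 in the contralateral and 226, 447 and 109.6 in the trained muscles of rats 1 to 3 (log2 change 4.71 ± 0.33, adjusted p = 9.2e-06). Reads of Hspa1b can be shared with its near-identical neighbour Hspa1a, which has no tested transcript here, so the value may stand for both. Hspb7, a small heat shock protein of cardiac and skeletal muscle that guards filamin, was at 117, 157 and 119.7 in the contralateral and 1096, 2858 and 2170 in the trained muscles (log2 change 3.85 ± 0.28, adjusted p = 1.2e-05). Cryab, the desmin chaperone alphaB-crystallin, reached 2063, 6583 and 4913 from 445, 685 and 482 (log2 change 2.94 ± 0.24, adjusted p = 2.4e-05).

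The 3 rats ranked differently for different chaperones. For Hspa1b and for its J-domain partner Dnajb1 (3.9, 4.5 and 3.03 contralateral against 53.8, 69.3 and 20.1 trained) the trained muscle of rat 3 was the lowest, whereas for Hspb7 and Cryab that of rat 1 was. Hspb1, which protects actin filaments, went from a mean of 181 to 996, Hsp90aa1, the inducible Hsp90, from 41.7 to 166, and Bag3, the co-chaperone that clears damaged filamin, from 63.5 to 149. Mitochondrial Hspd1 was at 83.8, 92.7 and 87.4 in the contralateral and 73.4, 70.1 and 71.2 in the trained muscles, a log2 difference of -0.29 that did not pass (adjusted p = 0.13).

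The core of the heat shock element, searched as GAANNTTC on both strands, occurred in the windows of 7 of the 12 called heat shock genes with an entry (58.3%), and in 4.96% of all 8106 genes. The 7 were Dnajb1, Hspb1, Hspb8, Serpinh1, Dnaja1, Bag3 and Hspb6. The muscle CAT element was in 4 of the 12 and in 10.4% of all. The AP-1 site and the E-box were in 1 each, and the cAMP response element and the CArG box in 0. Hspa1b, Cryab, Hsp90aa1, Dnajb4 and Hspb2 had no entry. A single such core is shorter than the repeated element that heat shock factors recognise, and the match says nothing of binding in these muscles. The windows of 3 strongly changed members are given with the cores in capitals, since they show how the motif lies relative to the start: its last base is 4 bases before the start in Dnajb1, 125 in Bag3, and 122 and 102 in Hspb1.
Hspb1 (chr12:26432302-26432551, minus strand): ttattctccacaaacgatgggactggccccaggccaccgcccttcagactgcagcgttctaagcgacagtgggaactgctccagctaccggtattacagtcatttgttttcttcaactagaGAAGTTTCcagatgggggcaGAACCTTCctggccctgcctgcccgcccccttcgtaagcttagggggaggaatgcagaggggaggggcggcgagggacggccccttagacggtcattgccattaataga
Dnajb1 (chr19:41431142-41431391, minus strand): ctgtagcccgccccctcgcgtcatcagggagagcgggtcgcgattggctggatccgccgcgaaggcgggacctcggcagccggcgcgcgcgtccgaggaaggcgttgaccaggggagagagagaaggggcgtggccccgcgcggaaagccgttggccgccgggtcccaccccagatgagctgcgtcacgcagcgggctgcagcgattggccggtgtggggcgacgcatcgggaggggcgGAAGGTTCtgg
Bag3 (chr1:192533210-192533459, plus strand): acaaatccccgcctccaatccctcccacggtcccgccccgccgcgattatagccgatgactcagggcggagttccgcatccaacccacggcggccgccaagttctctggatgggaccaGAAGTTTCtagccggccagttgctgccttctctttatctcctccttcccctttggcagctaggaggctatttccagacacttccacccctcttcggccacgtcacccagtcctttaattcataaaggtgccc

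Chaperones of the endoplasmic reticulum moved less. Of 26 tested genes, 7 rose and 2 fell, with a median log2 change of 0.34 (4 and 0 without rat 2, 3 and 0 without rat 3, 10 and 0 on the values as deposited). Manf, a secreted stress protein of this compartment, rose by 0.92 ± 0.15 on the log2 scale and P4hb, a protein disulfide isomerase that also serves collagen hydroxylation, by 0.63 ± 0.11. Among genes of the Atf4 branch and amino acid supply, 6 of 19 rose and 3 fell. Ddit3, the stress factor CHOP, was at 10.1, 15.8 and 7.6 in the contralateral and 47.4, 30.4 and 28.9 in the trained muscles (log2 change 1.61 ± 0.26, adjusted p = 0.0021). Chac1, a glutathione-degrading enzyme also counted as an Atf4 target, moved the other way, from 17.8, 15.2 and 11.4 to 5.17, 0.608 and 1.31 (log2 change -2.46 ± 0.44, adjusted p = 0.0034).

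Matrix genes rose in larger proportion than the other gene lists, markers of cell types aside. Of 39 tested collagens and fibre-forming matrix genes, 31 rose and 1 fell, with a median log2 change of 0.90. With a pseudocount of 0.1 the median was 1.68, as members at low values weigh more there. How many members passed the filter only through muscles in which they were high was not counted, which limits the share. Col3a1, the fibrillar collagen of reticular fibres, was at 36.4, 22.4 and 38.1 in the contralateral and 146, 229 and 209 in the trained muscles (log2 change 2.56 ± 0.19, adjusted p = 1.7e-05). Col1a1, the main chain of type I collagen, was at 29.2, 8.8 and 23.5 in the contralateral and 79.8, 144 and 108 in the trained muscles (log2 change 2.49 ± 0.35, adjusted p = 7.3e-04). Lum, a proteoglycan that spaces collagen fibrils, rose from a mean of 5 to 28.2 and Fn1, fibronectin, from 2.15 to 8.32. P4ha1, a subunit of the hydroxylase that stabilises the collagen helix, was the member that fell (27, 25.5 and 22.3 contralateral against 16.4, 17 and 12.9 trained, log2 change -0.66 ± 0.12). With the 6 muscles fitted alone, 14 of the 39 genes passed, and without rat 2 it was 17 that rose.

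Among matricellular proteins, proteases and their inhibitors, 16 of 30 rose and 2 fell. Without rat 2 it was 7 and 1, without rat 3 it was 10 and 1, and with the 6 muscles alone 4 and 0. The median log2 change was 0.58, and 1.05 with a pseudocount of 0.1, so the limit of low values holds here too. Timp1, an inhibitor of matrix metalloproteinases, was at 0.77, 1.18 and 0.15 in the contralateral and 7.25, 22.3 and 14.4 in the trained muscles (log2 change 3.13 ± 0.24, adjusted p = 2.0e-05), while its relative Timp4 fell from 8.1, 10.1 and 7.3 to 5.14, 5.11 and 4.08. Thbs1, a matricellular activator of TGF-beta, went from a mean of 0.867 to 7.11. Ccn1, a target of YAP and serum response factor, rose with overlap between the groups (12.1, 43.5 and 11.8 contralateral against 27.1, 186 and 132 trained, log2 change 2.19 ± 0.51), a call lost without rat 2 or rat 3.

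Genes that join the matrix to the fibre and its cytoskeleton rose in 33 of 52 tested cases and fell in 0, with a median log2 change of 0.79. The count was 20 without rat 2 and 15 with the 6 muscles alone. Tubb6, a beta-tubulin that appears in regenerating fibres, was at 3.58, 6.13 and 3.1 in the contralateral and 38.3, 156 and 109.8 in the trained muscles (log2 change 4.11 ± 0.29, adjusted p = 9.4e-06). Tubulin genes are close in sequence, and how reads were divided among them is uncertain. Myl12a, a regulatory light chain of non-muscle myosin, was at 186, 218 and 182 in the contralateral and 487, 1892 and 1331 in the trained muscles (log2 change 2.45 ± 0.31, adjusted p = 3.8e-04). S100a10 and its partner Anxa2 rose together, S100a10 from a mean of 19.2 to 105 and Anxa2 from 10.4 to 51.5. Itga5, the fibronectin receptor subunit, went from 2.02 to 9.83. Among membrane repair and dystrophin complex genes, 8 of 26 rose and 1 fell (5 and 0 without rat 2). Dysf, the repair protein dysferlin, was at 18.3, 21.5 and 17.8 in the contralateral and 43, 79.3 and 67.6 in the trained muscles (log2 change 1.63 ± 0.15, adjusted p = 6.2e-05), and Ehd4, an endosomal trafficking protein, was at 3.62, 3.17 and 3.1 in the contralateral and 6.69, 15.5 and 11.3 in the trained muscles.

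Markers of some other cell types rose as well, while those of others did not. All 12 tested macrophage and monocyte markers rose, with a summed rescaled value of 72.4 to 184 in the trained and 19.9 to 27.7 in the contralateral muscles, and 0 of the 12 were at 0 on average in either group. Without rat 2 the count was 8. Cd68, Aif1, Cd14, Mrc1, Cd163 and Adgre1 had contralateral means under 1 and passed the filter, a value of 1 in 3 muscles, through muscles in which they were higher, so this count too is given without weight. Cd163 lost its call under 10 of 12 alternatives and Adgre1 under 7. Lyz2, lysozyme, the largest single part of that sum, was at 8.81, 10.4 and 11.2 in the contralateral and 38.5, 102 and 74 in the trained muscles (log2 change 2.60 ± 0.21, adjusted p = 2.3e-05). Of 10 fibroblast markers 8 rose, with a summed value of 345 to 556 against 105 to 146. That count was 3 without rat 2, 5 without rat 3 and 2 with the 6 muscles alone. Col1a1, Col3a1 and Lum belong both to this list and to the matrix list. With the values given above, Col1a1 and Col3a1 made up most of the summed value in the trained muscles and a smaller part of it in the contralateral ones. None of 9 endothelial markers passed the threshold in either direction (55.6 to 61.2 against 57.7 to 64.8), nor did any of 6 red blood cell markers (487 to 723 against 681 to 747). Of 12 mature fibre markers 4 fell and 0 rose (0 fell without rat 2, 2 without rat 3 and 1 on the values as deposited), with sums of 78380 to 80950 and 89090 to 99490. No neutrophil marker of the list and only Cd4 of the T, B and NK cell markers passed the filter on low values. The part of these cell types in the rise of the matrix, adhesion and cytokine genes was not tested.

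**Figure D2:**
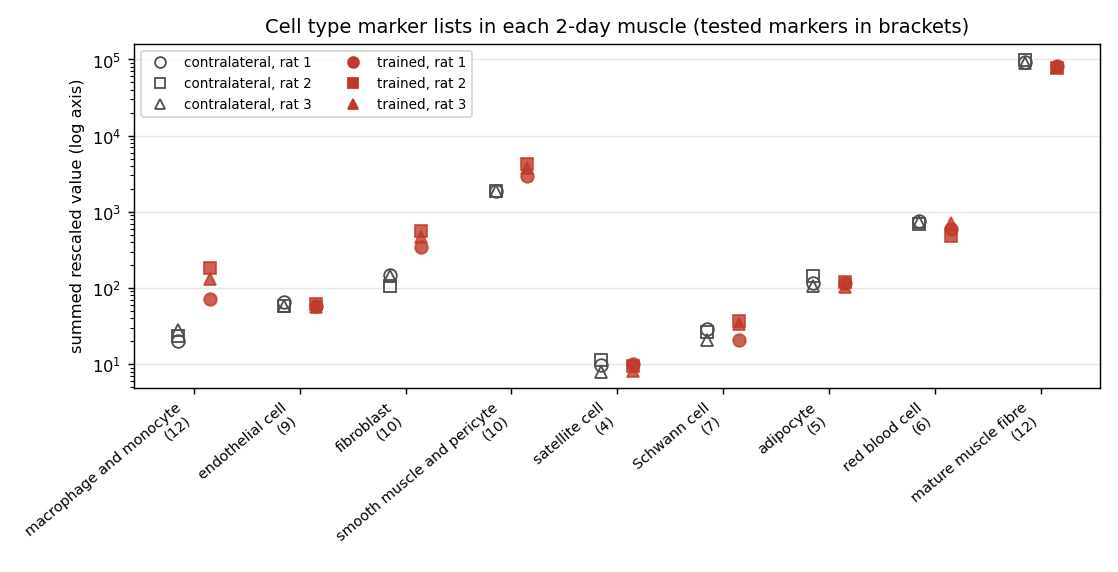
Summed rescaled value (log axis) of the tested markers of each cell type in each 2-day muscle, open grey for contralateral and filled red for trained, 1 symbol shape per rat. The macrophage sums (72.4 to 184 trained, 19.9 to 27.7 contralateral) and the fibroblast sums do not overlap between the muscles, while the endothelial sums do. In trained muscles the fibroblast sum is mostly Col1a1 and Col3a1. The smooth muscle and pericyte sum is mostly Des, which muscle fibres also express.

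Among cytokines, chemokines and their feedback genes 8 of 22 rose and 2 fell (6 and 0 without rat 3). Only these 22 of the 40 in the table passed the filter. Members with contralateral values under 1, such as Ccl2 below, passed it through muscles in which they were higher, so the count is given without weight. The median log2 change was 0.42, and 0.70 with a pseudocount of 0.1. Hbegf, a ligand of the EGF receptor, changed most among the tested genes of this list, at 3.21, 6.06 and 3.22 in the contralateral and 38.1, 102 and 45.5 in the trained muscles (log2 change 3.51 ± 0.29, adjusted p = 2.7e-05). Ccl2, which attracts monocytes, was at 0, 0.149 and 0.398 in the contralateral and 5.8, 3.55 and 12.3 in the trained muscles (log2 change 2.67 ± 0.31, adjusted p = 2.8e-04), and Csf1, the macrophage growth factor, at 1.56, 1.36 and 1.65 in the contralateral and 4.63, 6.4 and 6.66 in the trained muscles. Cish, a feedback inhibitor of STAT5 signals, fell (log2 change -1.65 ± 0.31), a call lost without rat 3, with a contralateral muscle of rat 2 far below the others (33.3, 5.75 and 39.3 against 12.2, 2.31 and 5.96 in the trained muscles).

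Growth signalling genes changed one by one more than as a group. Irs2, an adaptor of insulin and IGF1 receptors, was at 2.75, 6.32 and 3.29 in the contralateral and 44.7, 32 and 32.5 in the trained muscles (log2 change 2.92 ± 0.25, adjusted p = 3.0e-05). Igfbp5, which binds IGF in muscle, fell from 50.2, 26.8 and 52.8 to 17.4, 11.3 and 17 (log2 change -1.41 ± 0.12, adjusted p = 2.7e-05). In all, 2 of 17 genes of IGF signalling rose and 2 fell. Of 33 genes of the myostatin, activin and Smad pathway, 7 rose and 2 fell (4 and 0 without rat 2, 3 and 0 without rat 3). The activin antagonist Fst was at 0.416, 0.797 and 0.506 in the contralateral and 2.11, 2.22 and 3.37 in the trained muscles (log2 change 1.17 ± 0.22) and Mstn, myostatin itself, at 9.13, 4.09 and 5.41 in the contralateral and 11.9, 7.76 and 9.77 in the trained muscles (log2 change 0.63 ± 0.15, adjusted p = 0.019). The call of Fst was lost without rat 3, and that of Mstn, whose groups overlapped, without rat 2, without rat 3 and with no replicate block.

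Few genes of the apparatus of protein synthesis passed the threshold. Of 69 ribosome biogenesis factors 4 rose and 0 fell, with a median log2 change of 0.10 (5.80% rose, beside 9.59% of all genes). Rrp12, needed for export of ribosomal subunits, was at 12.4, 11.9 and 12 in the contralateral and 19.2, 26.5 and 21.1 in the trained muscles (log2 change 0.82 ± 0.13, adjusted p = 0.0014), and Ncl, nucleolin, rose by 0.46 ± 0.12, a call lost when any 1 rat was left out. None of 22 aminoacyl-tRNA synthetases passed, and 2 of 45 translation factors rose and 2 fell. Of 76 cytoplasmic ribosomal protein genes 68 had a log2 change above 0, with a median of 0.18 beside -0.02 for all genes. The median was 0.02, 0.13 and 0.36 in rats 1 to 3. On the values as deposited it was 0.31 and 8 of these genes passed as higher. In the main fit only Rpl3 passed, rising from 13.6, 15.4 and 10.8 to 40.9, 79.9 and 66.3 (log2 change 2.11 ± 0.32, adjusted p = 0.0014). Its muscle-specific relative Rpl3l was at 328, 371 and 328 in the contralateral and 314, 259.8 and 280.4 in the trained muscles, a log2 difference of -0.27 that did not pass (adjusted p = 0.2). Against all 12 contralateral muscles of the series, without pairing, 25 of the 76 ribosomal protein genes and 13 of the 69 biogenesis factors were higher. In that setting 1696 of all 13452 transcripts were higher, so the share of 9.59% above is not the background for these counts.

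Genes of protein breakdown gave calls in both directions. Fewer of either direction passed without rat 2 or without rat 3, and the falling ones rested on the scaling as well. Of 19 atrophy ligases and FoxO factors 3 rose and 4 fell. The values as deposited gave 3 and 1 for them, and leaving out rat 2 or rat 3 gave 1 and 1. Trim63, the ligase MuRF1, was at 67, 106 and 78.5 in the contralateral and 187, 299 and 157 in the trained muscles (log2 change 1.31 ± 0.14, adjusted p = 1.8e-04). Fbxo32, the ligase atrogin-1, was at 19.2, 14.6 and 19.8 in the contralateral and 28.3, 16.4 and 21.9 in the trained muscles and did not pass (adjusted p = 0.38). Of 32 ubiquitin and autophagy genes 7 rose and 7 fell, while the values as deposited gave 7 and 0, and leaving out rat 2 or rat 3 gave 3 and 1. Map1lc3a and Map1lc3b, which encode LC3 of the autophagosome, were lower by log2 changes of -0.63 ± 0.17 and -0.61 ± 0.16 (adjusted p = 0.025 and 0.025), and both lost their calls under 5 of 12 alternatives, the values as deposited among them. By contrast the related Gabarapl1 and the receptor Sqstm1 rose by 0.62 ± 0.14 and 0.46 ± 0.13, with both calls lost without rat 2. Of 46 proteasome genes 5 rose (1 without rat 2 or rat 3), led by the lid subunit Psmd11 (12.5, 12.5 and 15.4 contralateral against 32.7, 81.9 and 64 trained). Its value comes from 1 of 2 tested transcripts, the other of which rose by 0.64 ± 0.16 on the log2 scale.

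Myogenic and cell cycle genes were mostly low in level. In the list of satellite cell and myogenic factors 6 of 22 rose and 1 fell (4 and 1 without rat 3). Runx1, a factor induced in denervated and damaged muscle, was at 0.621, 0.559 and 0.496 in the contralateral and 1.89, 13.8 and 6.04 in the trained muscles (log2 change 2.10 ± 0.34, adjusted p = 0.002), and Myf6, the myogenic factor of mature fibres, at 73.1, 122 and 63.6 in the contralateral and 122, 230.3 and 169 in the trained muscles. Myog, which drives myoblast differentiation, was at 5.29, 5.11 and 5.7 in the contralateral and 4.99, 30.9 and 24.8 in the trained muscles. It was higher in rats 2 and 3 but not in rat 1, and did not pass the threshold (adjusted p = 0.06). The satellite cell marker list had 0 of 4 members past the threshold. Of 16 replication and mitosis genes 10 rose and 0 fell, all from contralateral means under 1. Another 7 of the 23 in the table did not pass the filter on low values, and members at such levels passed it only through muscles in which they were high, so the count is given without weight. It was 5 without rat 2. Top2a, a topoisomerase of dividing cells, had a mean of 0.0273 in the contralateral and 1.39 in the trained muscles. Gadd45a, a stress gene of growth arrest, was at 15.8, 13.7 and 11.6 in the contralateral and 25.4, 105 and 58.4 in the trained muscles (log2 change 1.91 ± 0.40, adjusted p = 0.0076). Its call was lost without rat 2 or rat 3.

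Of 32 calcium handling genes 4 rose and 9 fell, a direction that was lost on the values as deposited (4 and 3), without rat 2 (1 and 1), without rat 3 (1 and 2) and with the 6 muscles alone (2 and 2). Rcan1, the feedback inhibitor of calcineurin, was at 32.4, 40.1 and 47.5 in the contralateral and 173, 287 and 287 in the trained muscles (log2 change 2.59 ± 0.22, adjusted p = 2.7e-05). Ppp3cb, a catalytic subunit of calcineurin itself, was at 76.7, 69.4 and 84.4 in the contralateral and 55, 32.7 and 40.5 in the trained muscles (log2 change -0.86 ± 0.14, adjusted p = 0.0023). Jph2, which ties the sarcoplasmic reticulum to the surface membrane, was lower by the same test (log2 change -0.92 ± 0.24, adjusted p = 0.026). Pvalb, the calcium buffer of the fastest fibres, was at 2856, 2789 and 2511 in the contralateral and 1471, 1089 and 977 in the trained muscles (log2 change -1.22 ± 0.34, adjusted p = 0.03). Jph2 and Pvalb both lost their calls when any 1 of the 3 rats was left out, and on the values as deposited. Among sarcomere isoforms 3 of 26 rose and 5 fell, with counts of 1 and 0 without rat 2, 0 and 2 without rat 3, and 3 and 1 on the values as deposited. Mybph, a myosin-binding protein of low abundance in resting muscle, was at 126, 95.1 and 96.4 in the contralateral and 176, 707 and 452 in the trained muscles (log2 change 1.86 ± 0.46, adjusted p = 0.018). Its call was lost without rat 2 or rat 3. The table labels 6 transcripts Myh4 on chromosome 10, labels none Myh1 or Myh2, and 1 of the 6 (Myh4-202) was higher while the others did not pass, so no myosin heavy chain isoform is read from them.

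**Figure D3:**
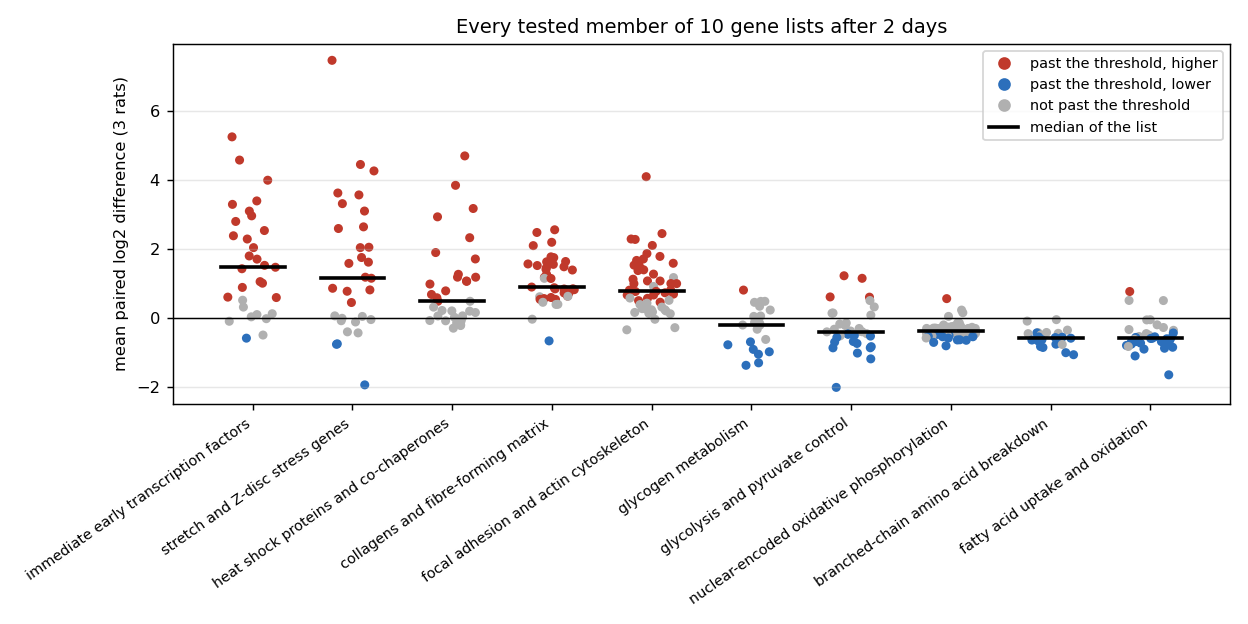
Mean paired log2 difference (vertical axis, 3 rats) of every tested member of 10 gene lists, red where higher and blue where lower past the threshold, grey otherwise; black bars are list medians. Early, stretch, chaperone, matrix and adhesion lists lie mostly above 0 (medians 0.49 to 1.48), and the 5 metabolic lists mostly below (medians -0.59 to -0.20).

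Fuel genes of the fibre fell. In fatty acid uptake and oxidation, 21 of 35 tested genes fell and 1 rose, with a median log2 change of -0.59. Fabp3, the fatty acid carrier of the muscle cytosol, was at 258, 501 and 238 in the contralateral and 121, 81.8 and 99.2 in the trained muscles of rats 1 to 3 (log2 change -1.65 ± 0.23, adjusted p = 8.0e-04). The contralateral muscle of rat 2 was far above the other contralateral muscles, and the trained levels were close to each other. Hadh and Acadm, dehydrogenases of beta-oxidation, were at means of 81.4 and 375 in the contralateral muscles and 44 and 241 in the trained ones. Cpt1b, the gate of mitochondrial fatty acid entry, was at 71.1, 80.3 and 71.9 in the contralateral and 63.3, 38.8 and 47.8 in the trained muscles (log2 change -0.59 ± 0.15, adjusted p = 0.02). Plin2, a lipid droplet coat protein, was the member that rose (14.5, 13.8 and 14.1 contralateral against 19.2, 32 and 24.9 trained), while Plin5, which ties droplets to mitochondria, fell from 6.06, 9.66 and 4.69 to 3.31, 1.48 and 3.08.

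Breakdown of branched-chain amino acids fell in 16 of 25 tested genes and rose in 0, with a median of -0.57. Bcat2, the first enzyme of the pathway, was at 38.4, 56.5 and 43.1 in the contralateral and 25.1, 19.8 and 21.9 in the trained muscles (adjusted p = 0.0093), and Aldh6a1, a dehydrogenase of the valine branch, at 56.9, 55 and 68.2 in the contralateral and 39.3, 24 and 36.8 in the trained muscles (log2 change -0.85 ± 0.12, adjusted p = 0.001).

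In glycolysis and pyruvate control 14 of 34 fell and 4 rose. Gpd1, the cytosolic glycerol-3-phosphate dehydrogenase that passes glycolytic electrons to mitochondria, had the largest decrease of the falling genes chosen for their size and mean level. It was at 371, 328 and 366 in the contralateral and 168, 53 and 74.1 in the trained muscles (log2 change -2.01 ± 0.25, adjusted p = 3.7e-04). The abundant glycolytic enzymes fell by less, Eno3, the muscle enolase, from a mean of 5654 to 3859, Pgam2, the muscle phosphoglycerate mutase, from 3111 to 1781, and Pfkm, the muscle phosphofructokinase, from 1328 to 846. The 4 that rose were Hk2, the insulin-responsive hexokinase (28.6, 32.4 and 28.2 contralateral against 86.1, 72.3 and 57.1 trained, log2 change 1.23 ± 0.16, adjusted p = 4.4e-04), Hk1, a broadly expressed hexokinase, the glucose transporter Slc2a1 (mean 0.85 against 3.19) and Pgam1, the mutase of other tissues.

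Glycogen genes fell in 7 of 21 cases and rose in 1. The phosphorylase kinase subunits Phkg1 (catalytic), Phka1 and Phkb all fell, Phkg1 from 119.8, 85.7 and 113 to 69.2, 29.1 and 37.1 (log2 change -1.30 ± 0.16, adjusted p = 3.8e-04). Pygm, the phosphorylase they activate, was at 3804, 3558 and 3904 in the contralateral and 2965, 1978 and 2144 in the trained muscles (log2 change -0.69 ± 0.13, adjusted p = 0.0041). Stbd1, which tethers glycogen to membranes, was at 119.9, 153 and 121 in the contralateral and 61.9, 46.3 and 43.1 in the trained muscles (log2 change -1.37 ± 0.20, adjusted p = 8.6e-04). Gbe1, the branching enzyme of synthesis, was the member that rose (log2 change 0.81 ± 0.17).

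Of 85 nuclear genes of oxidative phosphorylation 14 fell and 1 rose, with a median of -0.38. Ndufs1, a subunit of complex I, was at 221, 223 and 243 in the contralateral and 195, 108 and 148 in the trained muscles (log2 change -0.64 ± 0.15, adjusted p = 0.012). None of the 13 mitochondrially encoded mRNAs passed the threshold, with a median of -0.33. Their median was -0.19, -0.54 and -0.23 in rats 1 to 3. Of regulators of mitochondrial biogenesis, Ppargc1a, the coactivator PGC-1alpha, was at 2.75, 1.92 and 3.56 in the contralateral and 8.65, 4.57 and 4.12 in the trained muscles (log2 change 0.82 ± 0.22, adjusted p = 0.028), and Mfn2, a mitochondrial fusion protein, fell (log2 change -0.58 ± 0.13). The calls of Ndufs1 and Mfn2 were lost without rat 2 or rat 3 and on the values as deposited, and that of Ppargc1a without rat 1 or rat 2.

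The metabolic counts depended on single rats and on the scaling. Without rat 2 the number of falling genes was 2 for fatty acids, 4 for branched-chain amino acids, 2 for glycolysis and 0 for oxidative phosphorylation, and without rat 3 it was 9, 5, 4 and 1. On the values as deposited it was 12, 6, 5 and 3, and with the 6 muscles alone 0, 0, 1 and 0, while the list medians stayed below 0 in all of these settings (-0.66 to -0.20). In rat 2 alone the median log2 difference of the fatty acid genes was -1.03, against -0.29 in rat 1 and -0.48 in rat 3. Of the genes named in these lists, Acadm, Cpt1b, Bcat2, Eno3, Pgam2, Pfkm, Pygm, Phkb, Plin2, Plin5, Hk1 and Ndufs1 lost their calls without rat 2, and Pgam1 and Gbe1 without rat 3, while Gpd1 and Hk2 kept theirs in each of 12 alternatives. The 12 mature fibre markers had a median log2 change of -0.41. It was -0.59 for fatty acids, -0.57 for branched-chain amino acids, -0.40 for glycolysis and -0.38 for oxidative phosphorylation. The part of a lower share of fibre RNA in the metabolic falls was not tested.

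**Figure D4:**
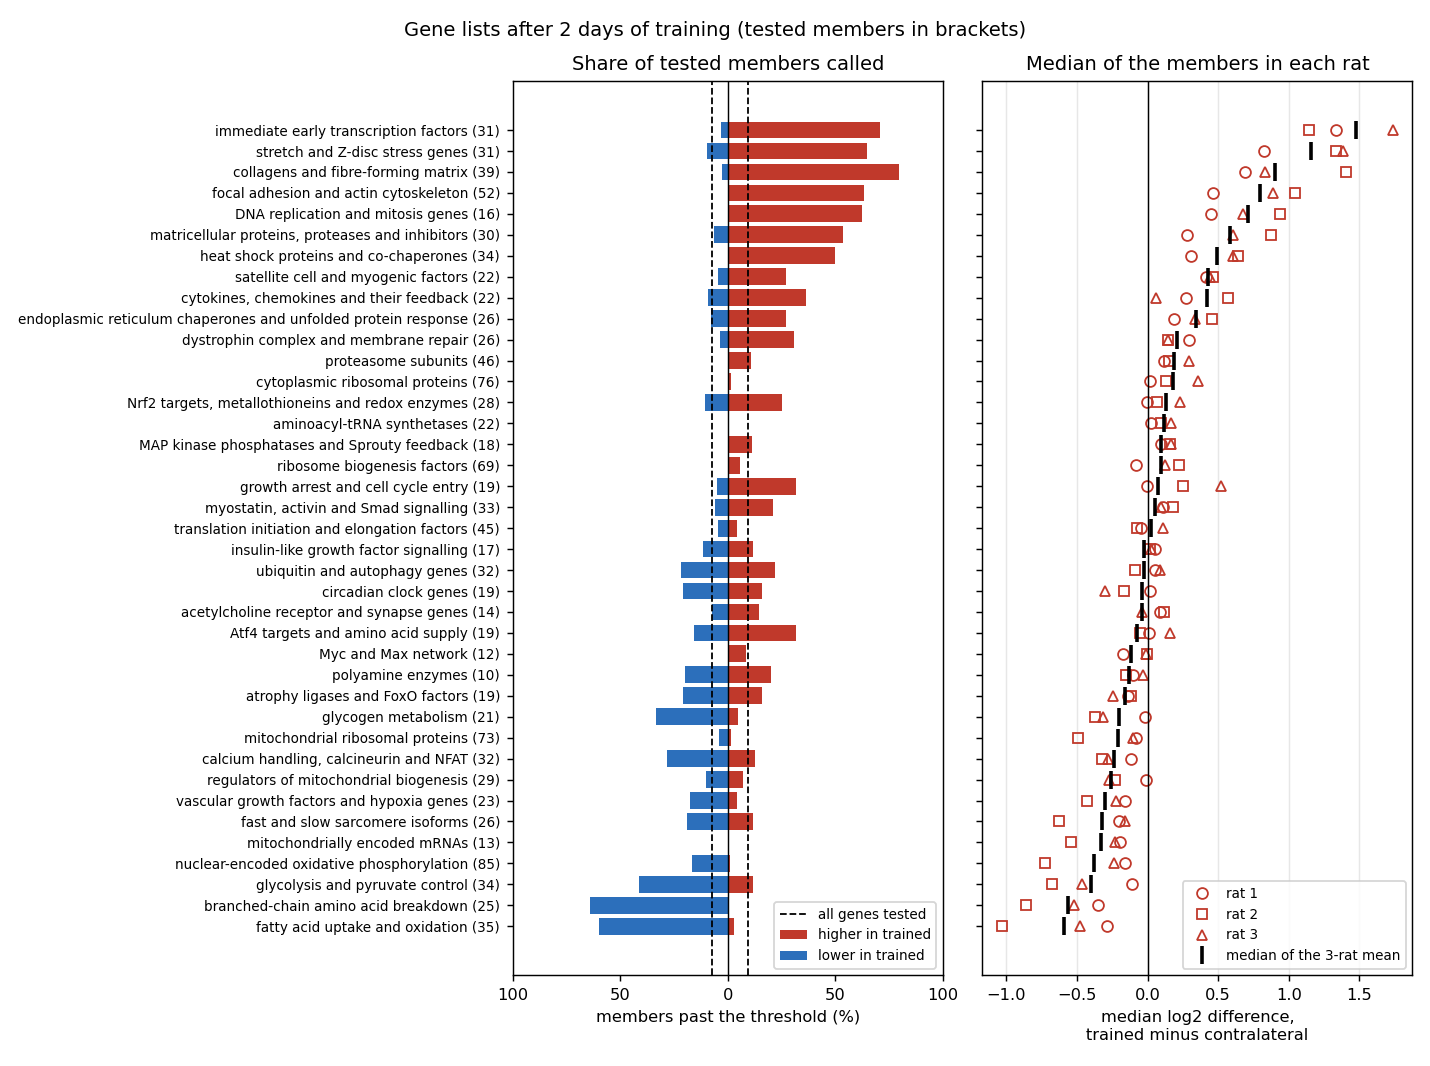
Left, percent of the tested members of each of 39 gene lists past the threshold, red to the right for higher and blue to the left for lower, with dashed lines at the shares of all genes (9.59% and 7.41%); right, median log2 difference of the members in each rat (open symbols) and median of the 3-rat mean (black bar). Metabolic lists lie furthest below 0 in rat 2, at -1.03 for fatty acids.

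The remaining genes with large decreases belonged to none of the lists. Gpcpd1, a phosphodiesterase that breaks down glycerophosphocholine, was at 64.5, 51.3 and 70 in the contralateral and 29.1, 12.4 and 21 in the trained muscles (log2 change -1.59 ± 0.18, adjusted p = 2.1e-04). Sar1b, a GTPase of vesicles that leave the endoplasmic reticulum, was at 324, 389 and 351 in the contralateral and 169, 101 and 124 in the trained muscles (log2 change -1.46 ± 0.18, adjusted p = 3.4e-04), and Slc37a4, the glucose-6-phosphate transporter of that compartment, fell from a mean of 67.1 to 27.4. In these and the other genes of this paragraph the groups did not overlap, which was part of the rule that chose them. Atp1b2, a subunit of the sodium pump, was at means of 167 contralateral and 78.8 trained, and Kcnc4, a potassium channel, was at 51.8 and 24.8. Cd24, a surface glycoprotein, fell from a mean of 65.7 to 23.1, and Ddit4l2, a relative of the mTORC1 inhibitor REDD1, from 104 to 54.4; both lost their calls without rat 2. RGD1564664 and Rrad were the remaining genes with large increases. RGD1564664, an uncharacterised gene that RefSeq names C3h11orf96, was at 0.98, 3.94 and 3.18 in the contralateral and 16.8, 88.9 and 82.1 in the trained muscles (log2 change 3.89 ± 0.37, adjusted p = 7.3e-05). Rrad, a small GTPase that inhibits calcium channels, went from 3.76, 2.95 and 4.10 to 30.3, 102.5 and 76.3 (log2 change 3.78 ± 0.43, adjusted p = 2.1e-04).

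Other lists gave small counts. Of 10 polyamine enzymes 2 rose and 2 fell, of 12 genes of the Myc and Max network 1 rose, of 14 acetylcholine receptor and synapse genes 2 rose and 1 fell, and of 73 mitochondrial ribosomal proteins 1 rose and 3 fell. Among markers, 1 of 7 for Schwann cells, 1 of 5 for adipocytes and 1 of 10 for smooth muscle and pericytes rose. Of 28 Nrf2 targets, metallothioneins and redox enzymes 7 rose and 3 fell (4 and 2 without rat 2). Hmox1, heme oxygenase, was at 1.82, 2.47 and 1.27 in the contralateral and 15.1, 20.2 and 14.4 in the trained muscles (log2 change 2.63 ± 0.22, adjusted p = 3.0e-05). Of 23 vascular and hypoxia genes 1 rose and 4 fell, none of which passed without rat 2, without rat 3 or with the 6 muscles alone, with a log2 change of 0.60 ± 0.13 for the oxygen-regulated factor Hif1a and of -0.67 ± 0.13 for its relative Epas1. Of 19 clock genes 3 rose and 4 fell (3 and 1 without rat 2, 2 and 1 without rat 3). Nr1d1, the repressor REV-ERBalpha, was at 60.7, 47.7 and 68.4 in the contralateral and 18.3, 25 and 37.7 in the trained muscles (log2 change -1.14 ± 0.22, adjusted p = 0.0055), and Arntl, the activator BMAL1 that it represses, at 2.68, 4.7 and 1.9 in the contralateral and 5.42, 6.52 and 6.64 in the trained muscles (log2 change 0.87 ± 0.17, adjusted p = 0.0064). Against all 12 contralateral muscles of the series the Nr1d1 difference did not pass (log2 -0.44, adjusted p = 0.49) and that of Arntl turned to -0.30 (adjusted p = 0.58).

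The change after 2 days was then set against the mean of the changes after 10, 20 and 30 days, each within its own animals. The difference passed the threshold for 135 of 13452 transcripts (1.00%), 75 in which the 2-day change lay above and 60 in which it lay below. On the values as deposited the split was 77 above and 18 below of 95, as the median difference of all transcripts moved from 0.01 to 0.14. At an unadjusted p under 0.05 there were 2129. Of the genes named above, Ankrd1 differed most. Its trained level was 379, 2670 and 1641 at 2 days and had a mean of 282 ± 163 (SD, n = 3) at 10 days, 45.9 ± 9.81 at 20 and 53.6 ± 7.91 at 30, with contralateral means of 6.45 to 18.5. The difference of the log2 changes was 4.55 ± 0.47 (adjusted p = 0.0033). Tubb6 differed by 2.84 ± 0.33 (adjusted p = 0.0048), and Rrad by 2.84 ± 0.49 (adjusted p = 0.025). Cryab (1.44 ± 0.27, adjusted p = 0.034) and the Z-disc protein Pdlim3 (1.37 ± 0.21, adjusted p = 0.018) followed. Their calls were lost under 5 and 3 of 10 alternatives, and that of Rrad under 4. Psmd11 had a trained mean of 59.6 ± 24.9 (SD, n = 3) at 2 days and of 17.5 to 20.6 later (1.91 ± 0.22, adjusted p = 0.0048).

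Most other early genes did not differ in this way. For Atf3 the difference from later days was 0.39 ± 0.57 (adjusted p = 0.79), for Egr1 0.72 ± 0.35 (adjusted p = 0.34) and for Xirp1 0.77 ± 0.28 (adjusted p = 0.2). None of the 31 immediate early factors passed this test, whose median paired change was 1.48, 1.54, 1.52 and 1.10 at 2, 10, 20 and 30 days. A p above the threshold does not show that these responses were equal.

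Mb, the oxygen-binding protein myoglobin, was among the genes whose 2-day change lay below the later changes. It was at a mean of 4251 ± 284 (SD, n = 3) in the trained and 7002 ± 1685 in the contralateral muscles at 2 days (log2 change -0.70 ± 0.15, adjusted p = 0.011), and its trained level was 10040 ± 2330 at 10 days (difference -1.36 ± 0.18, adjusted p = 0.0081). Ca3, the carbonic anhydrase of slow fibres, was at 892 ± 243 trained and 1321 ± 377 contralateral at 2 days and at 2856 ± 66.7 trained at 10 days (-1.47 ± 0.20, adjusted p = 0.01). Fabp3 (-1.52 ± 0.27, adjusted p = 0.027) and Ckmt2, the mitochondrial creatine kinase (-0.91 ± 0.19, adjusted p = 0.048), lay below as well. Gsn, an actin-severing protein, did not pass at 2 days (81.3, 69 and 79.5 contralateral against 81.7, 87.1 and 82.4 trained) and differed from the later changes by -1.29 ± 0.25 (adjusted p = 0.035). The later-day calls of Gsn and Ckmt2 were each lost under 6 of 10 alternatives, the values as deposited among them, and that of Fabp3 under 4.

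**Figure D5:**
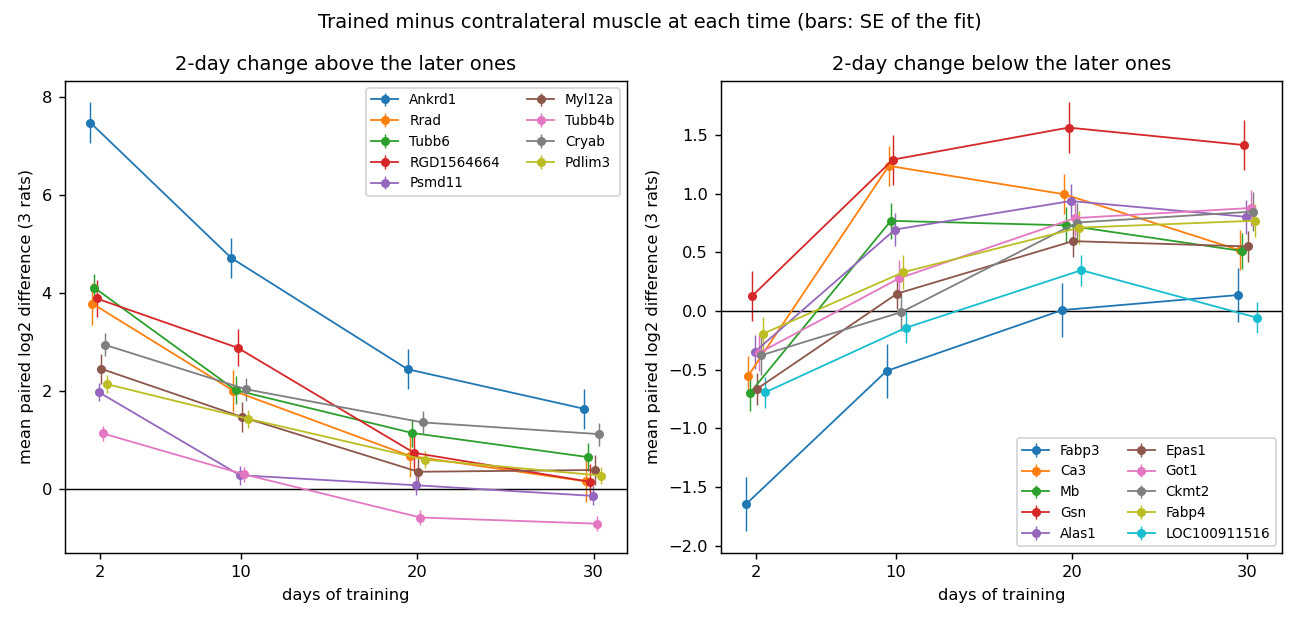
Mean paired log2 difference of 19 genes at 2, 10, 20 and 30 days (3 rats per time, points shifted slightly sideways), left for genes whose 2-day change lay above and right for those whose 2-day change lay below the later mean. Bars are SE of the fit, which pools the spread of all 12 rats. They have the same length at every time for a gene and do not show the spread of the 3 rats. Ankrd1 descends from 7.48 at 2 days to 1.63 at 30 days.

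The contralateral muscles of the 2-day animals were also set against those of the later animals. Across all transcripts, the 3 contralateral muscles at 2 days lay outside the range of the 9 later ones for 338 of 13452 (2.51%), and this held for 13 of the 135 transcripts that differed from later days (9.63%). Mitochondrially encoded mRNAs made up 29.7% to 43.9% of the total in the 30-day muscles. Without those muscles 23 transcripts differed from later days, and without rat 2 and without rat 3 there were 14 and 12.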

How the data were processed

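RNA of 24 tibialis anterior muscles (12 rats, 4 time points) had been sequenced from poly-A libraries as paired reads. Per the study's methods, the authors trimmed the reads and aligned them with STAR to rn6 in Partek Flow. They deposited transcript values of the TPM type, with the same total of 634431 in every sample, which carry no counts, so that the DESeq2 test named in the methods was not run. A gene-level signal table was not used here, nor were the authors' own comparisons, which hold fold changes and p-values.

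A median-of-ratios factor per muscle was applied to the values, and log2(value + 1) was taken for the 13452 of 20027 transcripts that reached 1 in 3 or more muscles. A fold change on this scale understates the change of low genes. All 24 muscles were fitted with limma 3.58.1 (R 4.3.3), with animal as a block and a trained effect per day, and p-values were adjusted by the Benjamini-Hochberg method over all transcripts at a threshold of 0.05. Each animal gave both muscles, which sets the pairing; deviations from group means correlated at 0.20, 0.27 and 0.09 within the 3 rats at 2 days and at -0.25 to 0.12 between rats. Of 276 sample pairs 0 were identical. The scripts were tested on simulated data.

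Where a gene had several transcripts, that with the highest mean was used. Named genes are the 15 with the largest rise and the 15 with the largest fall after 2 days (adjusted p under the threshold, a mean that reached 50 in either group, all 3 pairs in 1 direction and no overlap between the groups), list members past the threshold with the largest changes and those needed to describe a list, and 10 in each direction for the comparison with later days. Some items that meet these rules are not reported here. Other genes were chosen after their values were seen. The comparison, the gene lists and the members were chosen with earlier results of these data known. Alternatives were the values as deposited, a pseudocount of 0.1, no filter, no replicate block, all 12 contralateral muscles, the 6 muscles alone, sums per gene, an intensity trend, each replicate left out, and, chosen after seeing the data, the 30-day muscles left out.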

Additional observations from a re-analysis of the deposited data

Results flagged for a closer look

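For 19 genes, 9 above and 10 below, the paired change after 2 days differed from the mean of the paired changes after 10, 20 and 30 days by a test of that difference in the fit across all transcripts (limma, adjusted p under 0.05). They are given as differences of log2 changes ± SE, with no explanation. Above the later changes lay Ankrd1 (4.55 ± 0.47), Rrad (2.84 ± 0.49), Tubb6 (2.84 ± 0.33), RGD1564664 (2.64 ± 0.43), Psmd11 (1.91 ± 0.22), Myl12a (1.72 ± 0.35), Tubb4b (1.47 ± 0.18), Cryab (1.44 ± 0.27) and Pdlim3 (1.37 ± 0.21). Below them lay Fabp3 (-1.52 ± 0.27), Ca3 (-1.47 ± 0.20), Mb (-1.36 ± 0.18), Gsn (-1.29 ± 0.25), Alas1, the first enzyme of heme synthesis (-1.16 ± 0.17), Epas1 (-1.10 ± 0.15), Got1, an aspartate aminotransferase (-1.01 ± 0.18), Ckmt2 (-0.91 ± 0.19), Fabp4, a fatty acid carrier of adipocytes and endothelium (-0.80 ± 0.16), and LOC100911516 (-0.74 ± 0.15), which is annotated by number only. In 2 of these genes the contralateral muscles at 2 days lay outside the range of the 9 later ones. For LOC100911516 they were at 116 to 164 against 55.3 to 113 later, while the trained means were 83.0, 87.1, 106.5 and 73.9 at 2, 10, 20 and 30 days. For Tubb4b they were at 95.7 to 121 against 64.7 to 82.5, with trained means of 241, 97.5, 47.0 and 42.8. Among the 9 that lay above, all had risen at 2 days. Ankrd1, Tubb6, Psmd11 and Mb passed under each of 10 alternatives, and each of the other 15 lost its call under at least 1. Myl12a, Gsn, Ckmt2, Fabp4 and LOC100911516 each lost it under 6, Cryab and Got1 under 5, and Rrad and Fabp3 under 4.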

How the results depend on the processing

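The count of transcripts changed after 2 days was 2058, and 514 with the replicate block fitted to only the 6 muscles, 3087 with no replicate block against all 12 contralateral muscles, and 678 to 1986 when each animal was left out, lowest without rat 2. With no replicate block among the paired groups it was 1951. The count that differed from later days was 135, and 71 with a pseudocount of 0.1, 23 without the 30-day muscles, 306 with sums per gene, 226 with an intensity trend, 158 with no replicate block and 12 to 327 when each animal was left out. Fewer animals leave fewer degrees of freedom. For the other changes the cause was not tested. Against all 12 contralateral muscles the 2-day log2 change turned to -0.2954 for Gsn, -0.3028 for Arntl and -0.8302 for Fbxo32, and with sums per gene to -0.1676 for Myh4; none of these passed. Low transcripts cannot be judged for depth, since these values carry none.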
